A study of Mus musculus with 6 samples.

Results

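The extraocular muscles move the eyeball, and pieces of them can stay attached when an eyeball is dissected. In RNA of whole eyeballs of newborn mice, 40 genes of skeletal muscle fibres were followed as a measure of this tissue. The genes were named by a list drawn from the contractile apparatus, its calcium handling, its energy supply, the myogenic transcription factors and the acetylcholine receptor of the nerve-muscle junction. A probe set counted for a gene if the annotation of the array gave that gene as its only one, and the brightest such probe set over the 6 arrays stood for the gene. By this rule 37 of the 40 genes were measured, out of 12393 genes in all. Mybpc1, Mybpc2 and Neb were not analysed here.

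The eyeballs were taken at postnatal day 1. The 3 Brg1 cKO pups were homozygous for a floxed allele of Brg1, a chromatin remodeling ATPase encoded by Smarca4, and carried the Le-Cre transgene. Le-Cre is used to delete genes in the surface ectoderm of the head. This layer forms the lens, the epithelium of the cornea and the skin of the eyelid, and it does not form muscle. The study reports incomplete deletion in many embryos and, occasionally, deletion in the germline. Whether either applied to these 3 Brg1 cKO pups, and whether their muscle kept Brg1, was not tested. The 3 control pups are labelled wild type, and the study's methods call the array controls wild-type littermates of the same stage, while for its tissue sections the controls are littermates with floxed alleles and no Cre. No group carried Le-Cre alone, so effects of the transgene and of Brg1 loss cannot be told apart. Each sample was an individual eyeball on 1 array, and eye defects of the mutants varied in severity by the study's own account.

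Muscle fibres form when myoblasts, guided by the myogenic transcription factors, fuse and assemble sarcomeres, in which myosin thick filaments pull on actin thin filaments. Around birth a fibre replaces developmental forms of these proteins by mature ones. Embryonic and perinatal myosin heavy chains give way to slow and fast chains, and the gamma subunit of the acetylcholine receptor gives way to the epsilon subunit. Extraocular muscles are known for keeping developmental and slow chains into adult life, and their precursors come from head mesoderm.

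Sequence just upstream of 5 members is shown because the results below turn on them: the 2 developmental myosin heavy chain genes, the myogenic factor gene Myog, and the 2 receptor subunit genes that differed in opposite directions. Each run holds the 250 bases before the annotated start in RefSeq, build GRCm38.p6, on the strand of the gene. Capitals mark E-boxes, the CANNTG element that myogenic factors bind, and matches to a MEF2 search pattern, found in Myh8 alone of these 5. Variant stretches outside the search pattern, such as ctatatttat before Myog, are not marked. Myh3 is at chr11:67078050-67078299 and Myh8 at chr11:67276874-67277123, both on the plus strand. Myog is at chr1:134289754-134290003 and Chrng at chr1:87205561-87205810, both on the plus strand, and Chrna1 is at chr2:73580339-73580588 on the minus strand.
Myh3: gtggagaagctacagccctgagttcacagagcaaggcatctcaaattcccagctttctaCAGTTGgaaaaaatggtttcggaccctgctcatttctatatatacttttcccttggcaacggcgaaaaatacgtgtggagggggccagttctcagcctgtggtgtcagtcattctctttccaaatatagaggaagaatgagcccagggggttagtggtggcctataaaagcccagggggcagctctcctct
Myh8: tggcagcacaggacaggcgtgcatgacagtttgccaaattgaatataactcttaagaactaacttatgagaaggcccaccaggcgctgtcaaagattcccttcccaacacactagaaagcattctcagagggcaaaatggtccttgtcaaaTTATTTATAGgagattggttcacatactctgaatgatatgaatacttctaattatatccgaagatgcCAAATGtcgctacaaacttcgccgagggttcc
Myog: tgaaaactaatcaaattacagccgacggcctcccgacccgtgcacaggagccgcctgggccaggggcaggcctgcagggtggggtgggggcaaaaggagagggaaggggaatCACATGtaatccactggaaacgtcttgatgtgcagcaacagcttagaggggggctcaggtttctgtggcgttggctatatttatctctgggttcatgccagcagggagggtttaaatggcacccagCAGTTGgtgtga
Chrna1: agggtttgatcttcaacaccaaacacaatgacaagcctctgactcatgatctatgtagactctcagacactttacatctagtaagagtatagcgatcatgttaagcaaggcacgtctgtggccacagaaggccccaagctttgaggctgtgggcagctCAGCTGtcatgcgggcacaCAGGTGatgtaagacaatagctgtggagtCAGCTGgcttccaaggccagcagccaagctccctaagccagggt
Chrng: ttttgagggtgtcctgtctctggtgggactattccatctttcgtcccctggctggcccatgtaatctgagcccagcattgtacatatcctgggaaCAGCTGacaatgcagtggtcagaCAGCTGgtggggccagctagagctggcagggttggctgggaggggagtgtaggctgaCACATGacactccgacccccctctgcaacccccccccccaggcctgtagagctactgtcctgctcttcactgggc

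The nearest E-box lay 191 bases before the start of Myh3, 32 before that of Myh8 and 12 before that of Myog. Chrna1 and Chrng each had 2 copies of CAGCTG, a form of the E-box preferred by myogenic factors, at 92 and 44 bases and at 155 and 132 bases before their starts. Windows of 300 bases, reaching past the start, were given for 29 of the 37 measured members. Of these 29, 12 (41.4%) held CAGCTG, against 12.8% of the 27025 windows of all genes, and 23 (79.3%) held CANNTG of any kind, against 66.0%, where CAGCTG is included. Matches to the MEF2 search pattern, taken on both strands, stood in 5 members (17.2% against 1.73%), namely Myh1, Myh4, Myh8, Ttn and Casq2. The CArG box, the element of serum response factor, stood in Myh4, Acta1, Actc1 and Ldb3 (13.8% against 1.40%). E-boxes and CArG boxes read the same on both strands. These matches describe letters and not bound sites.

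All 6 eyeballs held skeletal muscle RNA, and the amount differed more between eyeballs of a genotype than between genotypes. Of the 37 measured members, 36 had a mean above the 25th percentile of all values (log2 4.84), under which signals sit near background, and Myh4 lay below it. No member passed the limma test between genotypes at an adjusted p under 0.05 (0 of 37, against 0.508% of the 22626 probe sets tested), and the smallest adjusted p was 0.517. At an unadjusted limma p under 0.05 there were 2 members, Tnnt2 and Ryr1, against 8.4% of probe sets. With 1 probe set per gene the latter share was 9.3%. Both members also had a fold over 1.5, against 6.48% of probe sets. Template matching with a fold over 1.5, the kind of selection used in the study, was recomputed here and took 0 members, against 3.62% of probe sets. The study reports a larger number of genes by its own selection. That list was not reproduced, and the 0 members refer to the recomputed selection alone. The groups did not overlap for the same 2 members (5.41%), against 13.7% of probe sets and, with 1 probe set per gene, 14.8%. The median log2 difference, Brg1 cKO minus wild type, was 0.28 over the members and 0.02 over all genes, and 31 of the 37 lay above 0.

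Single eyeballs set this median. Without Brg1 cKO replicate 2 it was -0.03, with 15 members above 0, and without Brg1 cKO replicate 1 it was 0.78, with 36 above 0. Without wild-type replicates 1, 2 and 3 it was 0.06, 0.15 and 0.61. The number of members past the adjusted threshold was 0 in each of these fits. In a whole eyeball, fewer muscle fibres and less RNA per fibre cannot be told apart, and the sources used here do not give how much muscle stayed on each eyeball.

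**Figure D1:**
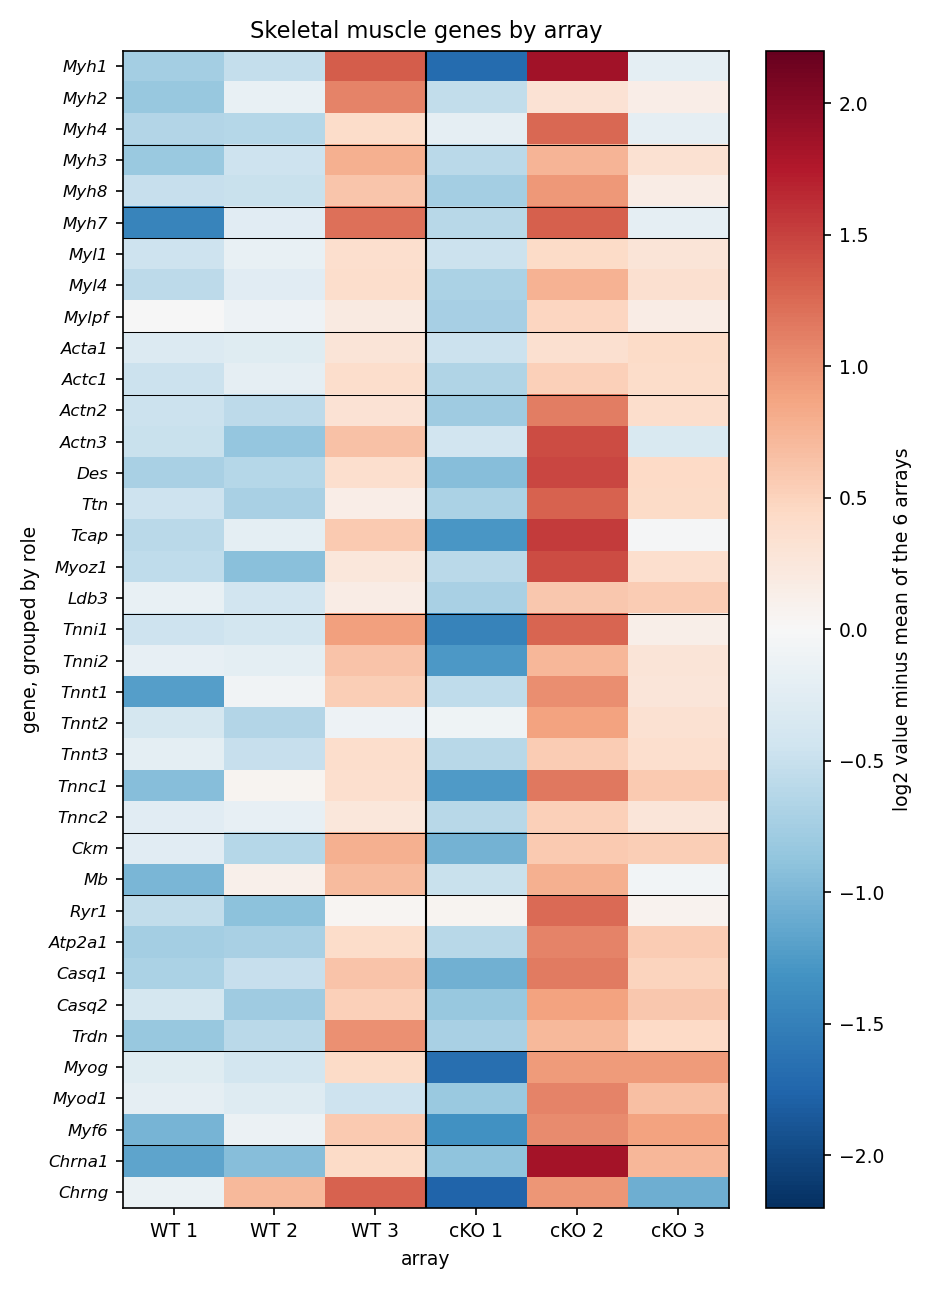
Each row is 1 of the 37 measured skeletal muscle genes, grouped by role, and each column is 1 array. Colour gives the log2 value minus the gene's mean over the 6 arrays, and columns WT 3 and cKO 2 are red in nearly every row while cKO 1 is blue in nearly every row.

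The order of the eyeballs was shared by nearly all members. Wild-type replicate 3 was the highest wild-type array for 36 of 37 members, against 34.9% of all genes, and the exception was Myod1. Brg1 cKO replicate 2 was the highest Brg1 cKO array for 36 members, against 36.6% of all genes, with Acta1 as the exception. Brg1 cKO replicate 1 was the lowest Brg1 cKO array for all 37, against 28.5% of all genes. Over both genotypes, Brg1 cKO replicate 2 was highest for 31 members, and wild-type replicate 3 was highest for Myh2, Myh3, Ckm, Chrng and Trdn. The lowest of the 6 arrays was Brg1 cKO replicate 1 for 23 members, wild-type replicate 1 for 9 and wild-type replicate 2 for 5. Which array is highest was counted after the values had been seen and is given as a description.

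The size of this movement was taken as the shift, the median over members of their distance from the wild-type average, which for a wild-type eyeball left out its own array. It was -0.57, -0.45 and 1.01 log2 units in replicates 1 to 3 of wild type, against -0.55, 1.22 and 0.51 in those of Brg1 cKO. The same medians over all genes stayed between -0.03 and 0.07. Leaving out its own array makes a wild-type eyeball's shift larger, so wild-type shifts spread wider by construction than those of Brg1 cKO. From the mean of 6 arrays, member medians were -0.50, -0.43 and 0.41 in wild type, against -0.72, 0.96 and 0.35 in Brg1 cKO. On the linear scale, the intensities of the 37 members summed to 59919, 65468 and 106127 in wild type, against to 49856, 132448 and 101110 in Brg1 cKO. The lowest and the highest sum thus both came from Brg1 cKO eyeballs.

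Spread within a genotype was wide for these genes. The median SD of a member was 0.60 log2 units over the wild-type arrays and 0.92 over the Brg1 cKO arrays, against 0.21 and 0.29 over all genes. The range of the wild-type arrays was larger than the difference of the group means for 35 of 37 members, against 75.5% of all genes, and Myod1 and Tnnt2 were the exceptions. The share of a member's variance over the 6 arrays that lay between the genotype means had a median of 5.95%, against 15.7% for all genes. This share is not corrected for the small number of arrays and is positive even for a gene that genotype leaves unchanged.

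**Figure D2:**
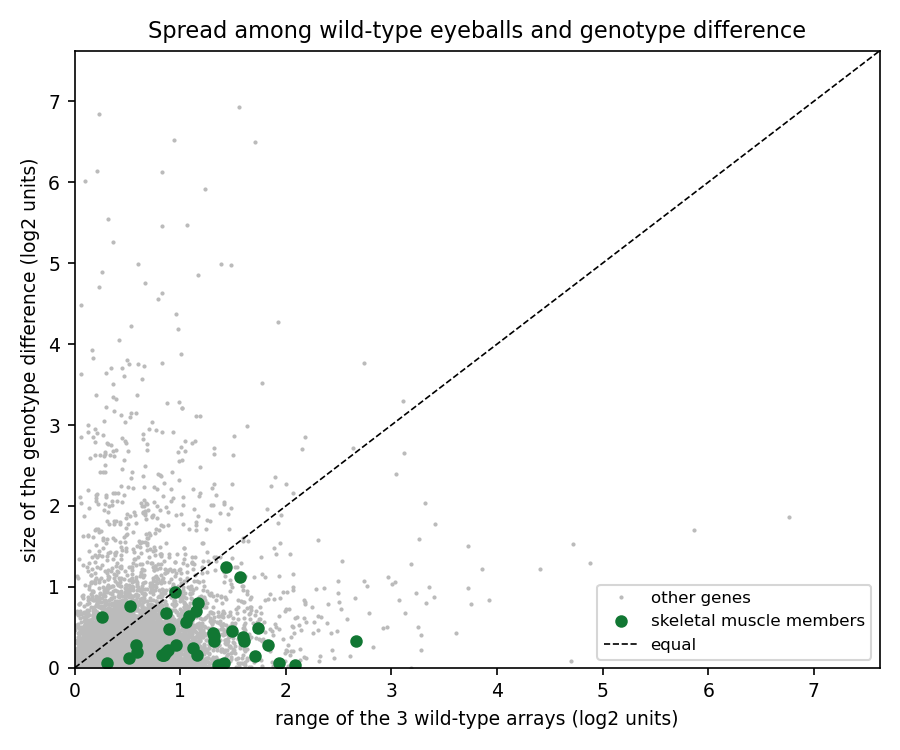
The horizontal axis is the range of the 3 wild-type arrays and the vertical axis the size of the genotype difference, both in log2 units, with 1 point per gene and the measured members in green. On the dashed line both are equal, and 35 of the 37 members lie below it.

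Among the thick filament genes, Myh3, the embryonic myosin heavy chain, read log2 11.04, 11.39 and 12.64 in replicates 1 to 3 of wild type, against 11.25, 12.60 and 12.19 in those of Brg1 cKO. All values below are given in this order of replicates. The groups overlapped, and the difference was 0.33 (SE 0.49, adjusted p = 0.908). Myh8, the perinatal chain, read 10.90, 10.92 and 12.02 in wild type, against 10.65, 12.36 and 11.56 in Brg1 cKO, a difference of 0.25 (SE 0.48, adjusted p = 0.930). Both developmental chains were thus high in the same eyeballs, wild-type replicate 3 and Brg1 cKO replicates 2 and 3.

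Myh7, the slow chain that heart muscle shares, read 8.38, 9.58 and 11.05 in wild type, against 9.22, 11.15 and 9.64 in Brg1 cKO (difference 0.33, SE 0.73, adjusted p = 0.940). Here Brg1 cKO replicate 3 stood beside the lower wild-type arrays. The fast IIa chain Myh2 read 6.99, 7.67 and 8.93 in wild type, against 7.28, 8.14 and 7.97 in Brg1 cKO, with a difference of -0.06 (SE 0.49, adjusted p = 0.984). Its highest eyeball was a wild-type one, and all Brg1 cKO values lay within the wild-type range.

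Myh1, the fast IIx chain, had the widest range of all members, 3.54 log2 units or 11.7-fold. It read 6.19, 6.41 and 8.27 in wild type, against 5.24, 8.79 and 6.72 in Brg1 cKO (difference -0.04, SE 0.92, adjusted p = 0.997). Its extremes were both Brg1 cKO eyeballs. The probe set is of a kind that can bind related transcripts, and its source sequence is shared with a probe set named for Myhas, an antisense gene of this locus, which read 4.58, 4.85 and 6.65 in wild type, against 4.31, 7.21 and 5.18 in Brg1 cKO. A further Myh1 probe set with the same order of highest and lowest eyeballs read 4.92, 4.67 and 7.04 in wild type, against 4.52, 7.45 and 5.57 in Brg1 cKO, so the gene is named with this uncertainty. Myh4, the fast IIb chain, stayed near the low end of the scale at 3.0, 3.02 and 4.06 in wild type, against 3.44, 4.91 and 3.45 in Brg1 cKO (difference 0.57, SE 0.47, adjusted p = 0.819). In the genome Myh3, Myh2, Myh1, Myh4 and Myh8 lie in this order on chromosome 11, and Myh7 lies on chromosome 14.

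**Figure D3:**
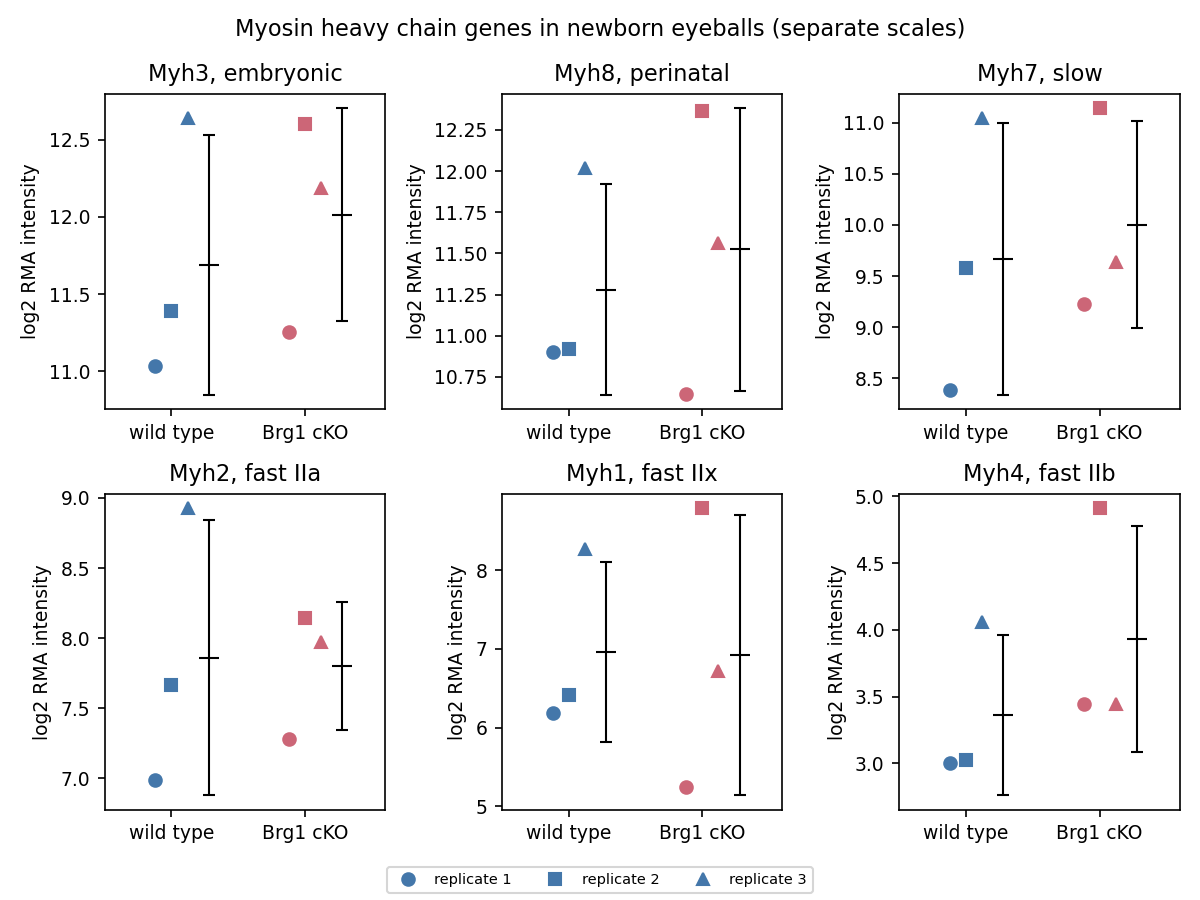
Each panel gives 1 myosin heavy chain gene on its own scale of log2 RMA intensity, with 1 symbol per eyeball and the mean and SD of 3 arrays in black. Wild-type replicate 3 and Brg1 cKO replicate 2 are the highest of their genotypes in all 6 panels, and the groups overlap in each.

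All 3 myosin light chain genes overlapped between genotypes. Myl4, the embryonic and atrial essential light chain, read 11.42, 11.74 and 12.38 in wild type, against 11.30, 12.76 and 12.34 in Brg1 cKO (difference 0.28, SE 0.41, adjusted p = 0.903). Mylpf, the regulatory light chain of fast fibres, read 12.80, 12.70 and 13.01 in wild type, against 12.08, 13.28 and 12.97 in Brg1 cKO (difference -0.06, SE 0.31, adjusted p = 0.976). Its low value in Brg1 cKO replicate 1 accounted for most of its range of 1.19. The remaining one, Myl1 of fast fibres, had the narrowest range of all members, 0.89.

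In the thin filament, Acta1, the skeletal actin, read 12.47, 12.51 and 13.06 in wild type, against 12.30, 13.14 and 13.19 in Brg1 cKO (difference 0.20, SE 0.30, adjusted p = 0.909). Actc1, the cardiac actin that developing skeletal fibres also use, read 12.18, 12.46 and 13.04 in wild type, against 12.00, 13.19 and 13.07 in Brg1 cKO (difference 0.19, SE 0.37, adjusted p = 0.929). Both actins had their lowest value in Brg1 cKO replicate 1 and overlapped between genotypes.

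The troponins, which make the thin filament respond to calcium, held 1 of the 2 members with separate groups. Tnnt2, the troponin T of heart and of embryonic skeletal muscle, read 9.10, 8.84 and 9.37 in wild type, against 9.40, 10.38 and 9.83 in Brg1 cKO. The lowest Brg1 cKO value lay just above the highest wild-type value, and the difference was 0.76 (SE 0.28, adjusted p = 0.517). A second probe set of Tnnt2 read 8.04, 7.94 and 8.53 in wild type, against 8.31, 9.52 and 8.67 in Brg1 cKO, and there the groups overlapped.

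Tnni1, the inhibitory subunit of slow fibres, read 8.50, 8.56 and 9.85 in wild type, against 7.49, 10.24 and 9.08 in Brg1 cKO (difference -0.03, SE 0.69, adjusted p = 0.996). Tnnc1, the calcium-binding subunit of slow and cardiac muscle, read 10.49, 11.48 and 11.80 in wild type, against 10.18, 12.59 and 12.01 in Brg1 cKO (difference 0.34, SE 0.63, adjusted p = 0.925). For both, the lowest and the highest eyeball were Brg1 cKO. The remaining troponins, Tnni2, Tnnt1, Tnnt3 and Tnnc2, had ranges from 1.12 to 2.23 and differences from -0.15 to 0.49, and all overlapped.

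All 7 measured genes of the Z-disc, titin and desmin group had differences above 0, and 0 passed the test. Tcap, which caps titin at the Z-disc, read 8.55, 8.93 and 9.71 in wild type, against 7.86, 10.69 and 9.12 in Brg1 cKO (difference 0.16, SE 0.67, adjusted p = 0.972). Des, the intermediate filament protein desmin, which smooth muscle also makes, read 9.55, 9.64 and 10.63 in wild type, against 9.32, 11.73 and 10.71 in Brg1 cKO (difference 0.64, SE 0.60, adjusted p = 0.840). Brg1 cKO replicate 2 stood 1.03 above the next eyeball for Des. Differences of the other 5, the alpha-actinins Actn2 and Actn3, Myoz1, Ldb3 and Ttn, ran from 0.29 for Ldb3 to 0.81 for Myoz1.

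Genes of calcium release and uptake likewise all differed above 0. Ryr1, the calcium release channel of the sarcoplasmic reticulum, read 9.81, 9.46 and 10.40 in wild type, against 10.42, 11.61 and 10.44 in Brg1 cKO. The groups were separated by a gap of 0.019 between the highest wild-type and the lowest Brg1 cKO eyeball, and the difference was 0.93 (SE 0.39, adjusted p = 0.584). Casq1, which stores calcium in fast fibres, read 8.36, 8.55 and 9.68 in wild type, against 8.01, 10.20 and 9.54 in Brg1 cKO (difference 0.39, SE 0.59, adjusted p = 0.909). Its groups overlapped, as did those of the calcium pump Atp2a1 (0.70), Casq2 (0.43), the slow and cardiac calsequestrin, and triadin, Trdn (0.28).

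Ckm, the muscle creatine kinase, read 7.95, 7.57 and 8.98 in wild type, against 7.17, 8.78 and 8.75 in Brg1 cKO (difference 0.06, SE 0.52, adjusted p = 0.985). Mb, the oxygen store myoglobin, read 6.52, 7.64 and 8.23 in wild type, against 7.04, 8.31 and 7.47 in Brg1 cKO (difference 0.14, SE 0.49, adjusted p = 0.963). Neither gene separated the genotypes.

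Myogenic transcription factors were lowest of the 6 arrays in Brg1 cKO replicate 1. Myog, which drives terminal differentiation of myoblasts, read 9.49, 9.35 and 10.18 in wild type, against 8.10, 10.70 and 10.70 in Brg1 cKO (difference 0.16, SE 0.68, adjusted p = 0.972). Myod1, which commits cells to the muscle lineage, read 7.95, 7.85 and 7.69 in wild type, against 7.32, 9.24 and 8.80 in Brg1 cKO (difference 0.63, SE 0.46, adjusted p = 0.796). Wild-type replicate 3, the highest wild-type array for every other member, was the lowest wild-type array for Myod1. Myf6, which acts late and persists in mature fibres, read 7.95, 8.84 and 9.55 in wild type, against 7.63, 10.003 and 9.85 in Brg1 cKO (difference 0.39, SE 0.68, adjusted p = 0.921). For all 3 factors the other Brg1 cKO eyeballs, replicates 2 and 3, lay above the whole wild-type group, while replicate 1 lay below it.

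By the brightest probe set of each gene, the receptor subunits gave the largest differences of either sign among the members, and neither passed the test. A dimmer probe set of Trdn differed by 1.38 (SE 0.64, adjusted p = 0.649). Chrna1, the alpha subunit that binds acetylcholine, read 6.33, 6.55 and 7.90 in wild type, against 6.60, 9.31 and 8.21 in Brg1 cKO (difference 1.12, SE 0.70, adjusted p = 0.756). Chrng, the fetal gamma subunit, read 7.59, 8.45 and 9.02 in wild type, against 5.96, 8.69 and 6.66 in Brg1 cKO (difference -1.25, SE 0.70, adjusted p = 0.725). Brg1 cKO replicates 1 and 3 lay below every wild-type eyeball for Chrng, while replicate 2 lay among them.

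A second Chrng probe set read 6.08, 6.52 and 6.73 in wild type, against 3.59, 5.88 and 4.89 in Brg1 cKO. There all Brg1 cKO eyeballs lay below all wild-type eyeballs, with a difference of -1.65 (SE 0.53, adjusted p = 0.428), and the remaining probe set stayed near the low end of the scale. Compared within each eyeball, the deviation of Chrng from its mean over the 6 arrays minus that of Chrna1 was 1.01, 1.65 and 0.88 in wild type, against -0.89, -0.87 and -1.80 in Brg1 cKO. This contrast, in which a shift shared by both genes cancels, was set up after the values had been seen and carries no test. Chrne, the mature epsilon subunit, which is not among the 40 genes and was likewise picked after its values were seen, read 4.68, 4.66 and 4.75 in wild type, against 4.14, 4.33 and 4.26 in Brg1 cKO, below the 25th percentile (difference -0.45, SE 0.16, adjusted p = 0.484).

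**Figure D4:**
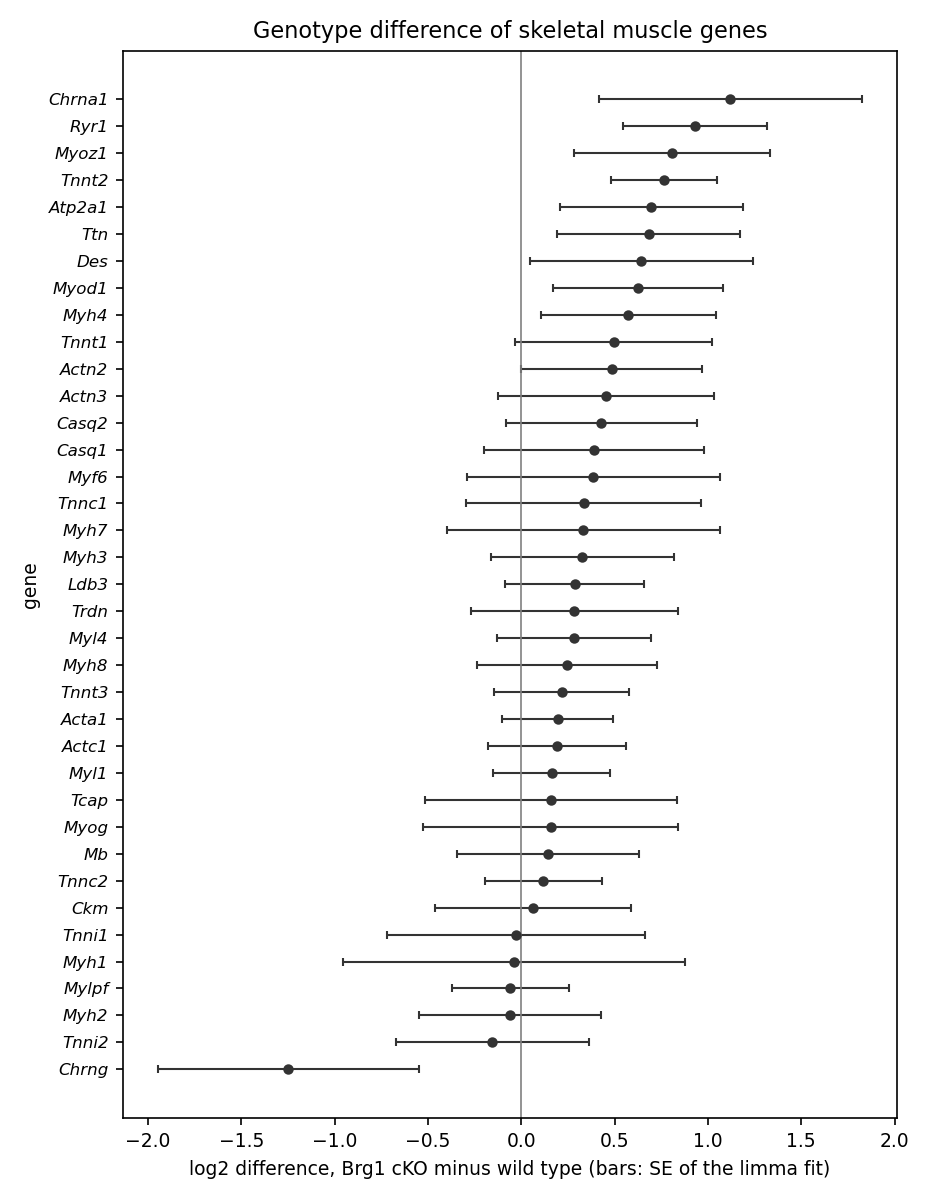
Points give the log2 difference, Brg1 cKO minus wild type, of each of the 37 measured members in order of size, and bars the SE of the limma fit. Chrna1 at 1.12 and Chrng at -1.25 mark the ends, 31 points lie above 0, and 0 pass the adjusted threshold.

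Developmental, mature and slow forms moved together from eyeball to eyeball. Median shifts of the 6 developmental genes (Myh3, Myh8, Myl4, Actc1, Tnnt2 and Chrng) were -0.61, -0.27 and 0.90 in wild type, against -0.55, 0.91 and 0.50 in Brg1 cKO. For the 12 measured genes of mature fast fibres they were -0.47, -0.49 and 1.01 in wild type, against -0.52, 1.01 and 0.27 in Brg1 cKO. The 5 measured genes of slow or cardiac-shared forms shifted by -1.16, -0.14 and 1.17 in wild type, against -0.62, 1.27 and 0.52 in Brg1 cKO. In each genotype the eyeball with the highest and the one with the lowest median were the same for developmental and slow forms, and for mature fast forms wild-type replicates 1 and 2 exchanged places.

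The mature fast median minus the developmental one was 0.14, -0.22 and 0.11 in wild type, against 0.03, 0.10 and -0.23 in Brg1 cKO. Wild-type shifts leave out the eyeball's own array and are wider by construction, so the Brg1 cKO values cannot be set against the wild-type range. Within Brg1 cKO, replicate 3 was lowest and replicate 2 highest. These values moved with the processing, and that of replicate 2 turned negative when the low-intensity gene Myh4 was left out. For slow minus developmental forms the difference was -0.55, 0.14 and 0.27 in wild type, against -0.07, 0.36 and 0.02 in Brg1 cKO. Here too the sizes of wild-type and Brg1 cKO values are not on the same base. Chrng fell outside the common movement of the developmental class, with a shift of -1.69 in Brg1 cKO replicate 3, where the class median was 0.50.

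Other genes of striated muscle followed the members. Of 51 further genes of this kind, 38 were measured, 0 passed the adjusted threshold and 5 (13.2%) had an unadjusted p under 0.05, some above and some below 0, against 9.3% of all genes. Their median difference was 0.39, with 29 above 0, and their median shifts were -0.44, -0.40 and 0.85 in wild type, against -0.61, 1.41 and 0.48 in Brg1 cKO. The smallest p belonged to Smyd1, a methyltransferase needed for sarcomere assembly, which read 4.24, 4.23 and 4.996 in wild type, against 5.49, 6.08 and 6.26 in Brg1 cKO (difference 1.45, SE 0.30, adjusted p = 0.132). Next came Fbxo32, the ubiquitin ligase atrogin-1 of muscle wasting, at 8.84, 7.71 and 8.37 in wild type, against 7.37, 6.55 and 7.15 in Brg1 cKO (difference -1.28, SE 0.34, adjusted p = 0.270). Cacna1s, the voltage sensor that opens the Ryr1 channel, read 5.24, 5.30 and 5.55 in wild type, against 5.74, 7.01 and 6.31 in Brg1 cKO (difference 0.99, SE 0.32, adjusted p = 0.428). In all 3 of these genes the groups did not overlap, and this held for 4 of the 38 (10.5%), against 14.8% of all genes.

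As a list, precursor genes moved less than the members. Their median range over the 6 arrays was 1.12 log2 units, against 1.91 for the members and 0.77 for all genes. Pax7, which marks satellite cells, lay near the low end of the scale between 3.17 and 3.57 in all 6 eyeballs. Myf5, an early myogenic factor, read 5.87, 6.35 and 7.13 in wild type, against 4.99, 7.09 and 7.06 in Brg1 cKO (difference -0.07, SE 0.60, adjusted p = 0.986), lowest in the same eyeball as Myog, Myod1 and Myf6. The 13 measured genes of the precursor list had median shifts between -0.15 and 0.26, and 4 of them had means below the 25th percentile.

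Lists of other tissues that an eyeball can carry were set beside the members, and their part in the muscle shifts was not tested. Of 8 measured heart markers, Myh6, Myl7, Nppb, Nkx2-5 and Mybpc3 had means below the 25th percentile (5 of 8), and Nppa lay close to it. The other heart markers were above it, Tnni3, the cardiac troponin I, between 6.39 and 8.13 with its highest value in Brg1 cKO replicate 1, and Ryr2, the cardiac calcium release channel, which neurons also make, between 6.73 and 7.29. Smooth muscle genes shifted by -0.12, -0.23 and 0.31 in wild type, against -1.40, 0.75 and -0.31 in Brg1 cKO, and shared with skeletal muscle the high Brg1 cKO replicate 2 and the low replicate 1. Tendon and dense connective tissue reached 0.76 in Brg1 cKO replicate 2 and adipocyte genes 1.05, which were the highest shifts of those lists. Shifts of wild-type and Brg1 cKO eyeballs are not on the same base, so the next medians are taken from the mean of 6 arrays. Cartilage and bone genes were high in wild-type replicate 3 (0.28) and Brg1 cKO replicate 2 (0.50) and below 0 in the other 4 eyeballs. Erythroid genes, with 4 measured, were likewise above 0 in the same pair of eyeballs (0.35 and 0.42) and below it in the others. Means lay below the 25th percentile for 2 of these 4 genes. The same held for 3 of 8 measured cartilage and bone genes and 4 of 7 adipocyte genes. Retina genes ran the other way within Brg1 cKO, with shifts of 0.43, -0.38 and 0.24. Taken from the mean of 6 arrays, epidermis medians were highest in Brg1 cKO replicate 2 (0.56) and lowest in wild-type replicate 1 (-0.25). On the same base the peripheral nerve list was highest in wild-type replicate 1 (0.39). Lens genes, from tissue in which Le-Cre acts, shifted by -2.59, -0.80 and -3.77 in Brg1 cKO, and of these the eyeball with the smallest lens shift, replicate 2, had the largest summed muscle signal. Of the 73 genes measured in these lists, 0 passed the adjusted limma threshold, while 16 (21.9%) had an unadjusted p under 0.05, against 9.3% of all genes, and 10 of the 16 were lens genes.

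**Figure D5:**
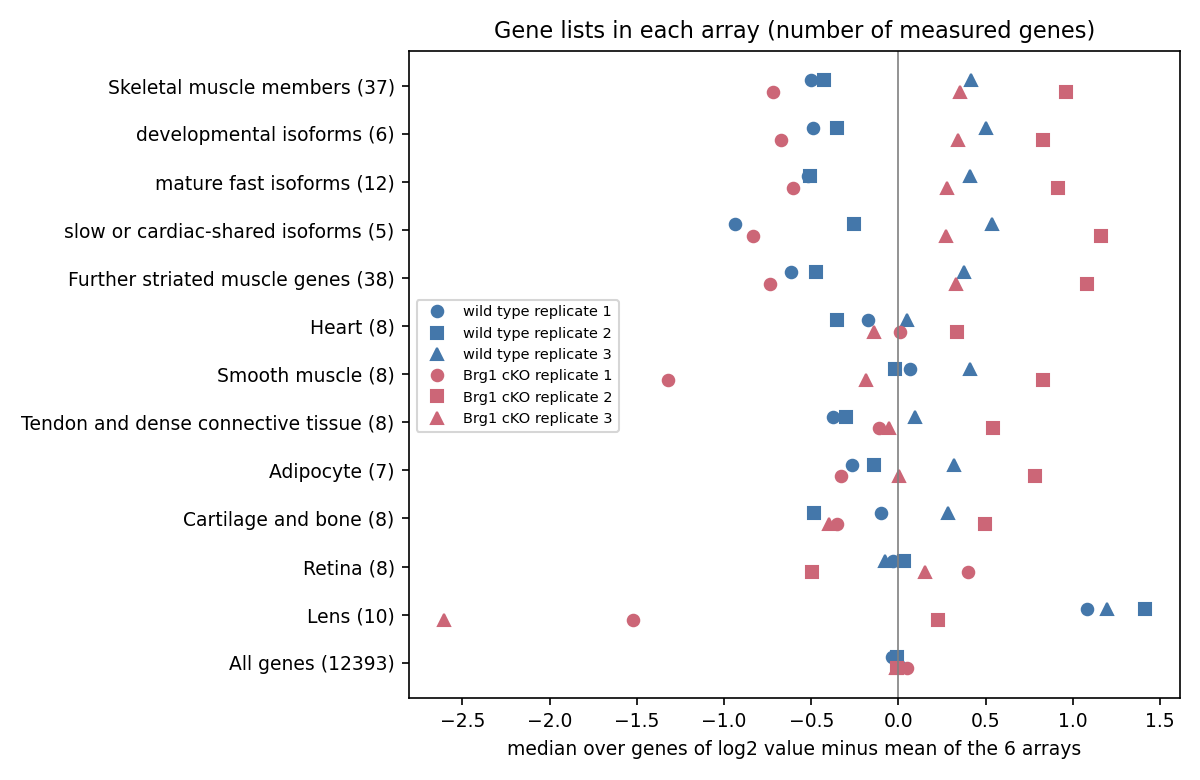
Each row is a gene list with its number of measured genes, and symbols give for each eyeball the median over the list of the log2 value minus the mean of the 6 arrays. Brg1 cKO replicate 2 is highest in each skeletal muscle row (0.96 for the members), all genes stay near 0, and of these rows the lens row alone sets all wild-type eyeballs above all Brg1 cKO eyeballs.

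Of the whole series, 115 of 22626 probe sets passed the limma threshold. Smarca4, the targeted gene, had 2 probe sets, with differences of 0.18 (adjusted p = 0.866) and -0.70 (adjusted p = 0.598), and the sources used here do not say whether they lie in the deleted part. Median intensity ran from 169.1 to 185.5 over the arrays. The actin control probe sets differed between the 3' and 5' ends, a gap that widens as RNA degrades, by 0.93 to 1.12 in wild type, against by 0.98 to 1.34 in Brg1 cKO, with the narrowest gap in wild-type replicate 3 and the widest in Brg1 cKO replicate 2, the eyeballs with the most muscle RNA of their genotypes. The gap of the Gapdh controls was also widest in Brg1 cKO replicate 2 (1.05), but narrowest in Brg1 cKO replicate 3 (0.73). Wild-type replicate 3 read 0.75. Xist lay at 12.3 or above in 5 eyeballs and at 4.88 in Brg1 cKO replicate 1, so that the eyeball with the least muscle RNA was the male one. The part of RNA quality and sex in the muscle values was not tested.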

How the data were processed

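RNA of 6 individual eyeballs, 3 wild type and 3 Brg1 cKO, was amplified from 50 ng and hybridised to Affymetrix mouse genome arrays. The authors normalized the arrays with RMA and deposited intensity values on a linear scale, which were converted to log2 here (software version not given in the sources used here). RMA equalises arrays, and bright and dim probe sets can understate differences. The 64 array control rows were left out, which left 22626 probe sets, of which 20380 name 1 gene. The brightest of a gene's probe sets stood for it. Of 37 members, 11 have more than 1 probe set, and in 7 of these the differences were not all of one sign. Genotypes were compared with limma 3.58.1 in R 4.3.3, two-sided, with genotype as the only term and Benjamini-Hochberg adjustment over all probe sets; every adjusted p comes from it. Alternatives were another normalization, an intensity filter, means over probe sets, an intensity trend, template matching, a replicate block and leaving out each array.

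Values of every array are given for the myosin heavy chains, the myogenic factors, the receptor subunits and, in each other role group, the 2 members with the widest range, and for Tnnt2. Other genes named are Pax7, Myf5, the 3 smallest p of the further striated muscle list and the 15 genes most like the members; the heart markers, Chrne and Ibsp were picked after values were seen. The members and lists were chosen with earlier results of these data known. The counts by array, the share of variance and the subunit contrast were set up after values were seen. Promoter sequences are those of RefSeq, and all 37 symbols were found in its gene table. The number of arrays limits the precision.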

Additional observations from a re-analysis of the deposited data

How the results depend on the processing

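The 3 eyeballs a group limit what could be detected, and for 35 of 37 members the wild-type range was larger than the genotype difference. Quantile normalization, centring on the median, the intensity filter (36 members), means over probe sets and an intensity trend left 0 members past the adjusted threshold, with 30 or 31 above 0 and a median difference of 0.24 to 0.32. Means over probe sets turned the sign of 4 members, of which 0 passed the test. The number of probe sets past the threshold was 115 as reported, 820 by template matching and 1467 at an unadjusted p with a fold over 1.5, which took 2 members, Tnnt2 and Ryr1. Leaving out 1 array gave 24 to 216 probe sets, namely 24, 26 and 36 when replicates 1 to 3 of wild type and 140, 216 and 53 when those of Brg1 cKO were dropped, with 0 members in each; the member median then ran from -0.03 to 0.78. The cause was not tested. Mature fast minus developmental became -0.24 in Brg1 cKO replicate 2 under the intensity filter, which drops Myh4, and 0.29 in wild-type replicate 3 and -0.067 in Brg1 cKO replicate 3 with means over probe sets.

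Replicate numbers are shared by the groups. Between same-numbered arrays, deviations from the group means correlated at 0.06, 0.08 and 0.12, against -0.31 to 0.23 for the other pairings. The arrays were therefore not taken as pairs. With a replicate block 45 probe sets and 0 members passed.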

Other observations

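Likeness of other genes to the members was Pearson's r over the 6 arrays to the members' mean profile, among 4088 genes with a range of at least 1 log2 unit, and it is a description over 6 eyeballs that share the same differences in tissue. The closest was Clec14a, an endothelial surface protein, with r = 0.999, at log2 7.05, 7.19 and 7.74 in wild type, against 6.87, 8.08 and 7.62 in Brg1 cKO. Stbd1, a glycogen-binding protein abundant in muscle, followed with 0.991. Cd34, a surface protein of endothelial and progenitor cells, and Esam, an endothelial adhesion molecule, reached 0.984 and 0.979. Of the 15 closest genes, 4 were in the further striated muscle list, Csrp3, Myom1, Myot and Asb5. The others were Gng11, Fcgrt, H3c4, Bag3, Itgb1bp2, Npy1r and Fn1. Among the members themselves, r was at least 0.8 for 32 of 37, against 5.87% of all genes, and lowest for Chrng (0.59), Ryr1 (0.74), Myod1 (0.76), Tnnt2 (0.77) and Myh2 (0.79), each of which helped to make that mean.

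Ibsp, a bone matrix gene chosen after its values were seen, read 9.52, 2.75 and 8.76 in wild type, against 2.36, 8.51 and 4.55 in Brg1 cKO, so that eyeballs of both genotypes held or lacked this signal.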
